A study of Mus musculus with 14 samples.

Results

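The 5 receptor genes of the monocyte and macrophage lineage described here, Ccr1, Ccr2, Ccrl2, Cx3cr1 and Cxcr4, were followed in macrophages taken from mouse mammary tumours. The genes were chosen by name, as chemokine receptors of monocytes and macrophages, with earlier results of these data already known. They make up 5 of the 24556 genes in the deposited table. All 5 were found there, and all 5 reached the minimum level in all 14 libraries. The tumours were grown in the fat pad from 4T1 cells, an established line of mouse mammary carcinoma cells. Before injection the cancer cells were kept for 5 days with DMSO, the solvent control, or with 5 μM GSK269962A, a kinase inhibitor. F4/80+ cells were isolated from the tumours with magnetic beads over successive columns, and their total RNA was sequenced. Tumours were taken on day 8 after injection (3 libraries from DMSO tumours and 3 from GSK tumours) or on day 14 (4 and 4). In the text, "GSK" and "DMSO" name the treatment of the cancer cells; no label records a treatment of the macrophages or of the mice. Strain, sex and age of the mice, and whether a library stands for 1 tumour or a pool, are not given in the sources used here, so p-values measure the spread between these libraries, which may be partly technical.

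Chemokine receptors sit in the cell membrane, cross it with a bundle of helices and pass the signal inward through heterotrimeric G proteins, which turns a gradient of ligand into directed movement. Ccr2 binds Ccl2 and related ligands and is known for bringing classical monocytes out of the bone marrow and into inflamed tissue and tumours, while Ccr1 binds Ccl3, Ccl5 and other inflammatory chemokines. Cx3cr1 binds fractalkine (Cx3cl1) and marks patrolling monocytes and many tissue macrophages, Cxcr4 binds Cxcl12 and retains cells where that ligand is made, and Ccrl2 is an atypical receptor that binds chemerin without the usual G protein signal and presents it to cells carrying Cmklr1.

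Cxcr4 (ENSMUSG00000045382) lies on the minus strand at chr1:128588199-128592293 of the mouse build GRCm38. The other genes lie on chromosome 9: Ccrl2 (ENSMUSG00000043953) at chr9:111054486-111057519, Cx3cr1 (ENSMUSG00000052336) at chr9:119901616-120069879, Ccr1 (ENSMUSG00000025804) at chr9:123962124-123968692, all on the minus strand, and Ccr2 (ENSMUSG00000049103) at chr9:124101950-124113557 on the plus strand. All 5 are annotated as protein coding, and Ccr1 and Ccr2 belong to a cluster with other receptor genes, among them Xcr1 and Ccr3. Of the 31-base words in the exons of each gene, 0.111% in Cxcr4, 0.231% in Ccrl2 and 0.642% in Ccr1 also occur in the exons of another gene. The shares were 3.48% for Ccr2 and 3.28% for Cx3cr1. How the authors' counting assigned reads from those shared words is not given in the sources used here.

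The stretch upstream of the transcription start is shown for Cxcr4 and Ccrl2. Both passed a test below, and the stretch shown for each lies outside its own annotated exons. The sequences come from RefSeq (GRCm38.p6), are read 5′ to 3′ on the minus strand of each gene and end just before the RefSeq start site (the most upstream of 3 listed for Ccrl2), at chr1:128592300-128592549 for Cxcr4 and chr9:111057520-111057768 for Ccrl2. Capitals mark the letters that matched a searched motif.
Cxcr4: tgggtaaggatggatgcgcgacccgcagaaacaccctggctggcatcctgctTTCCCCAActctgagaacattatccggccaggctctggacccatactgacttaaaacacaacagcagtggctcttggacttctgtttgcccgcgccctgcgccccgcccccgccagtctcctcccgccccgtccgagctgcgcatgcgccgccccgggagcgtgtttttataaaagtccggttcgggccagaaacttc
Ccrl2: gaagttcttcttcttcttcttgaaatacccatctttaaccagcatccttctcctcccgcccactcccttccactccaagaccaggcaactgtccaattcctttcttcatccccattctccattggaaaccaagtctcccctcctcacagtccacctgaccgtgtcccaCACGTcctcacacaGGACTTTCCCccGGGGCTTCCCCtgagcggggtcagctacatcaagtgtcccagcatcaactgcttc
Both strands were searched for GAGGAA (the core bound by PU.1-type ETS factors), ACGTG (hypoxia response element core), CCACCC (KLF-type box), TTNNGNAA (C/EBP-type), TTCNNNGAA (GAS, the STAT site) and GGGNNNNNCC (NF-kB-type). The Cxcr4 window held 1 C/EBP-type match, a pattern found in 36.8% of the 250-base windows before 32851 RefSeq starts. The Ccrl2 window held 1 hypoxia core, found in 16.6% of all windows, and 3 NF-kB-type matches, 2 of them overlapping, a pattern found in 45.8%. The bases of the Cxcr4 window were 61.2% G or C and those of the Ccrl2 window 54.0%, against a median of 52.4%. A match here is a description of letters and no evidence of binding. The corresponding windows of Ccr2 and Cx3cr1 lie mostly or wholly inside annotated exons of those genes. Windows of the other Ccrl2 starts had 139 and 140 of 250 bases in Ccrl2 exons. They are not shown and held 2 KLF-type boxes and 1 hypoxia core each.

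The deposited values are normalised and on a log2 scale; their exact transformation and the read depth are not given in the sources used here. Within groups, libraries correlated at 0.967 to 0.993 (Pearson r over the 11886 genes tested). The first principal component held 40.8% of the variance and placed the 4 GSK day 14 libraries at 28.6 to 43.1 and the other 10 between -37.9 and 12.0. Libraries also fell into 9 with a high level of the ribosomal transcript AY036118 and 5 with a high level of Gm42418. All 4 GSK day 14 libraries had high AY036118, so on day 14 the other kind holds DMSO libraries only. All 12 pan-macrophage markers listed (among them Adgre1, which encodes F4/80, Csf1r and Mertk) were well above the minimum, at log2 values of 8.41 to 17.3. Of the markers of T and NK cells, 3 of 9 measured reached the minimum, with Nkg7 at or below 1 unlogged in every library. Markers of other cells were present: all 10 epithelial markers of the 4T1 cells measured and all 7 endothelial markers reached the minimum. So did 5 of 9 neutrophil markers. The highest mean log2 values were 10.35 among the epithelial, 10.1 among the endothelial and 10.5 among the neutrophil markers.

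Between genes, levels were compared only per kilobase of exon. On that log2 scale Ccrl2 had the highest median over the 14 libraries, 8.97 (range 8.44 to 9.70), followed by Cxcr4 at 8.80 (8.38 to 9.40), Ccr1 at 7.27 (6.63 to 7.98), Ccr2 at 6.61 (5.73 to 7.33) and Cx3cr1 at 5.67 (4.47 to 6.57). Ccrl2 and Cxcr4 were thus several-fold above the others, with unlogged medians per kilobase of 502 and 445 against 154 for Ccr1, 97.9 for Ccr2 and 51.0 for Cx3cr1. Over the libraries the ranges of Ccrl2 and Cxcr4, of Ccr1 and Ccr2, and of Ccr2 and Cx3cr1 overlapped, while those of Cxcr4 and Ccr1 did not.

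The comparison of GSK with DMSO tumours asks whether pre-treatment of the cancer cells is followed by a different macrophage profile. Cxcr4 was the receptor gene that differed: it was lower in macrophages from GSK tumours on day 14 and in the mean of both days, and on both days every GSK library lay below every DMSO library. On day 8 its log2 values were 10.25, 9.96 and 10.13 in DMSO libraries 1 to 3 and 9.47, 9.58 and 9.55 in GSK libraries 1 to 3. On day 14 they were 9.82, 9.87, 9.71 and 10.02 in DMSO libraries 1 to 4 and 9.60, 9.43, 9.33 and 9.24 in GSK libraries 1 to 4. The lowest DMSO value of each day thus stood above the highest GSK value of that day, and the narrowest gap was between 9.71 and 9.60 on day 14. In bulk RNA of this kind, fewer cells that carry Cxcr4 and less Cxcr4 RNA per cell cannot be told apart.

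**Figure D1:**
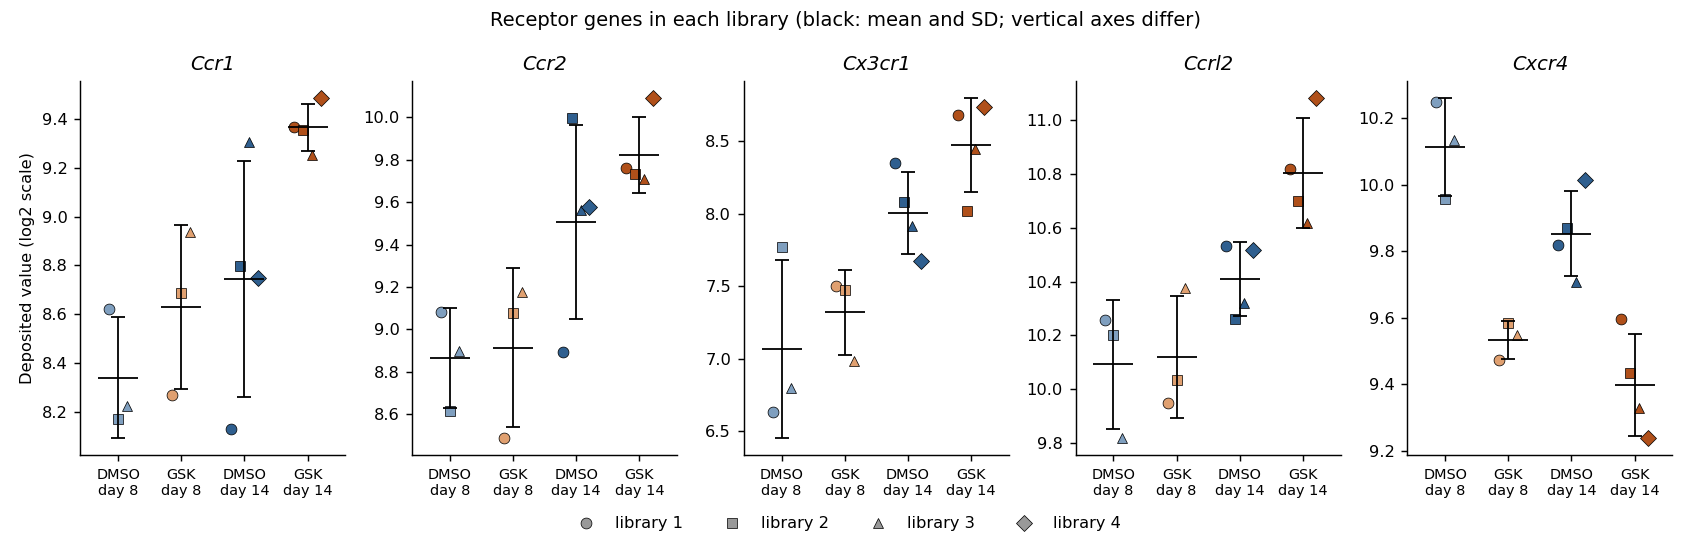
Deposited log2 values (vertical axes, which differ between panels) of the 5 receptor genes in the 14 libraries, grouped along the horizontal axis by treatment of the cancer cells and day; symbols mark library numbers, black bars the mean and SD. Cxcr4 in the GSK groups lies below the DMSO group of the same day, and Ccr1, Ccr2, Ccrl2 and Cx3cr1 reach their highest group means in GSK day 14.

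Cxcr4 averaged 10.11 ± 0.15 (SD, n = 3) in DMSO and 9.53 ± 0.06 (n = 3) in GSK libraries on day 8, a log2 difference of -0.58 (SE 0.14, 95% interval -0.87 to -0.29), which was 1.49-fold lower in GSK and did not pass the threshold of 0.05 (limma, Benjamini-Hochberg adjusted p = 0.0696). On day 14 it averaged 9.85 ± 0.13 (n = 4) and 9.40 ± 0.15 (n = 4), and fell by 0.45 (SE 0.12), a 1.37-fold lower level (limma, adjusted p = 0.0276). Averaged over both days it fell by 0.52 (SE 0.09), 1.43-fold (limma, adjusted p = 0.00283). The difference between the days' effects was 0.12 (limma, adjusted p = 0.858), so the test did not separate the day 8 effect from the day 14 effect. The mean over both days passed the threshold whichever of the 14 libraries was left out (adjusted p 0.00246 to 0.0107). The day 14 value alone lost its call, with its direction kept, without DMSO day 14 library 2 (adjusted p = 0.0701) or 4 (0.0790), or without GSK day 14 library 2 (0.0540), 3 (0.0675) or 4 (0.112), and the day 8 value passed without DMSO day 8 library 2 (-0.66, adjusted p = 0.0444).

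Among libraries with high AY036118 alone, Cxcr4 differed by -0.39 on day 8 (limma, adjusted p = 0.307) and by -0.36 on day 14 (adjusted p = 0.102), and among those with high Gm42418 by -0.72 on day 8 (adjusted p = 0.307); no GSK day 14 library was of the latter kind. On day 8 each of these sets has an arm of 1 library, 1 DMSO against 2 GSK libraries with high AY036118 and 2 DMSO against 1 GSK library with high Gm42418, so the spread behind these p-values comes from the other libraries of the set. Among other cell types, no endothelial marker of 7 passed the threshold on either day; their summed unlogged level was 1885 to 2129 in DMSO and 1371 to 2089 in GSK libraries on day 8, and 1133 to 1506 and 943 to 1209 on day 14. Pecam1, which endothelial cells and some myeloid cells express, fell by 0.42 in the mean of both days (limma, adjusted p = 0.0308). The part of such cells in the Cxcr4 difference was not tested. Of the 3 T and NK cell markers that reached the minimum none passed, and the summed level of all 9 measured was 74.6 to 88.2 in DMSO and 72.4 to 89.2 in GSK libraries on day 14. Of 5 dendritic cell markers none passed on either day. The sums of all 8 measured were 650 to 1148 in DMSO and 601 to 943 in GSK libraries on day 8. On day 14 they were 460 to 672 and 296 to 428. Neutrophil marker sums on day 14 were 2167 to 2610 and 1303 to 2462. Of 12 pan-macrophage markers, Adgre1 (0.70), Cd68 (1.04) and Lyz2 (0.81) were higher and Itgam (-0.59) and C1qa (-0.85) lower in GSK libraries on day 14. Of the 10 epithelial markers of the 4T1 cells, Krt14, a keratin of basal epithelium, was higher in GSK tumours by 1.37 on day 8 (limma, adjusted p = 0.0361) and by 0.68 in the mean of both days (adjusted p = 0.0143), and 9 of the 10 had positive differences on day 8, with sums of 2338 to 2982 in DMSO and 1813 to 3921 in GSK libraries. None of the 10 passed on day 14, with sums of 1323 to 2076 and 1223 to 1701. The 13 genes of the mitochondrial genome, read as a sign of RNA and cell quality, summed to 55572 to 70035 in DMSO and 64619 to 104886 in GSK libraries of day 14, and the part of these shifts in the Cxcr4 difference was not tested.

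**Figure D2:**
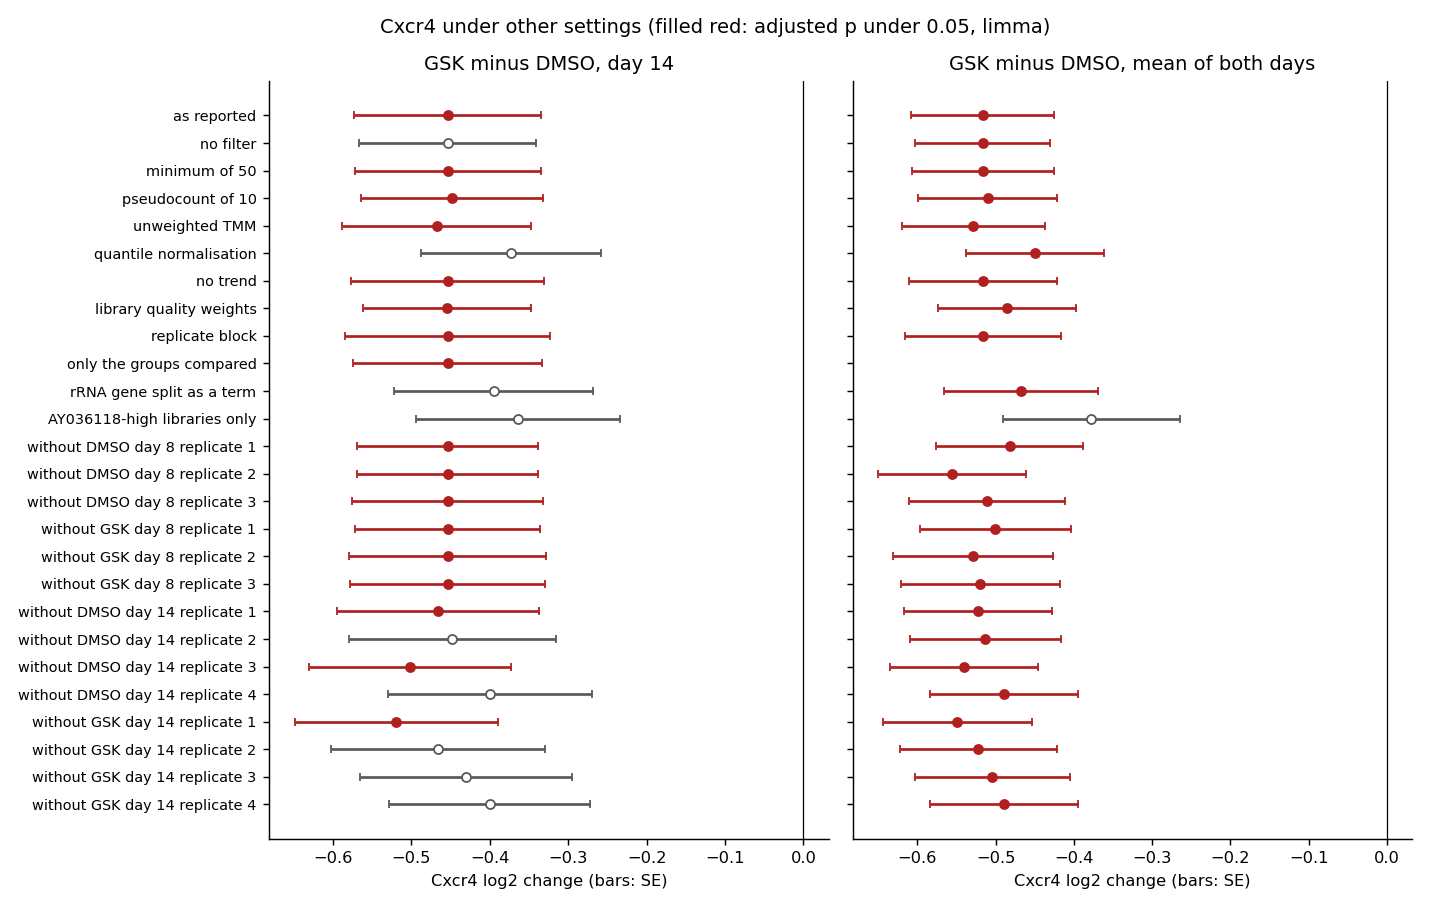
Log2 change of Cxcr4, GSK minus DMSO, on day 14 and in the mean of both days (horizontal axes; bars are standard errors), under the analysis reported and each other setting listed on the vertical axis; filled red points have an adjusted p under 0.05. All points lie below 0, and the mean of both days passes the threshold in every setting drawn except the set of libraries with high AY036118.

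Counted over the receptor genes, none of the 5 passed on day 8, where 0.194% of the 11886 genes did (limma, adjusted p under 0.05); at an unadjusted p under 0.05 there was 1, Cxcr4, against 16.3% of all genes. On day 14, Cxcr4 alone of the 5 passed, where 10.8% of all genes did in either direction and 5.73% were lower. In the mean of both days it was again Cxcr4 alone, where 14.5% passed and 7.77% were lower. Groups did not overlap for 1 receptor on day 8 (16.2% of all genes) and for 2 on day 14 (22% of all genes). The other 4 receptors had positive differences on both days, none of which passed; the median over the 5 was 0.05 on day 8 and 0.40 on day 14, against 0.02 for all genes on both days.

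Ccrl2 was the other gene whose day 14 groups did not overlap. Its log2 values were 10.53, 10.26, 10.32 and 10.52 in DMSO libraries 1 to 4 and 10.82, 10.70, 10.62 and 11.08 in GSK libraries 1 to 4. Every GSK value lay above every DMSO value, yet the difference of 0.40 (SE 0.15) did not pass (limma, adjusted p = 0.0896). On day 8 the values overlapped, at 10.26, 10.20 and 9.82 in DMSO and 9.95, 10.03 and 10.38 in GSK libraries, with a difference of 0.03 (SE 0.17, adjusted p = 0.955 by limma).

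Ccr1, the receptor of Ccl3 and Ccl5, had the largest day 14 difference of the 4 that did not pass. It measured 8.13, 8.80, 9.31 and 8.75 in the DMSO libraries and 9.37, 9.36, 9.25 and 9.49 in the GSK libraries of day 14. The DMSO libraries were spread widely (8.75 ± 0.48) and the GSK libraries lay close together (9.37 ± 0.09), with DMSO library 3 above the lowest GSK library. The difference was 0.62 (SE 0.21; limma, adjusted p = 0.0628), and it passed without DMSO day 14 library 3 (0.81, adjusted p = 0.0150) or without GSK day 8 library 1, which enters only through the shared estimate of spread (adjusted p = 0.0453). On day 8 Ccr1 measured 8.62, 8.17 and 8.22 in DMSO and 8.27, 8.69 and 8.94 in GSK libraries, an overlap, with a difference of 0.29 (SE 0.24; adjusted p = 0.576 by limma).

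Ccr2, the receptor of classical monocytes, measured 9.08, 8.62 and 8.90 in DMSO and 8.49, 9.08 and 9.18 in GSK libraries on day 8. On day 14 it measured 8.89, 9.997, 9.56 and 9.58 in DMSO and 9.76, 9.73, 9.71 and 10.09 in GSK libraries. The groups overlapped on both days, and the differences of 0.05 (SE 0.24) and 0.32 (SE 0.21) did not pass (limma, adjusted p = 0.941 and 0.352). The marker Ly6c2 of the same monocytes differed by -0.73 on day 14 (limma, adjusted p = 0.142), while Chil3, a secreted chitinase-like protein of monocytes and alternatively activated macrophages, rose by 1.72 and was the only one of 12 monocyte markers past the threshold.

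Cx3cr1, the fractalkine receptor, measured 6.64, 7.77 and 6.80 in DMSO and 7.50, 7.47 and 6.99 in GSK libraries on day 8, and 8.35, 8.08, 7.91 and 7.67 in DMSO and 8.68, 8.02, 8.45 and 8.74 in GSK libraries on day 14. DMSO day 8 library 2 stood about 1 log2 unit above the other libraries of its group, and the treatment groups overlapped on both days. The differences were 0.25 (SE 0.27) on day 8 and 0.47 (SE 0.24) on day 14, neither past the threshold (limma, adjusted p = 0.687 and 0.213). The mean of both days, 0.36 (adjusted p = 0.191), passed without DMSO day 8 library 2 (0.54, adjusted p = 0.0292). For none of the 5 genes did the effect of GSK differ between days past the threshold (limma; 0.00841% of all genes did), and none had an unadjusted p under 0.05 in that test, against 8.3% of all genes.

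**Figure D3:**
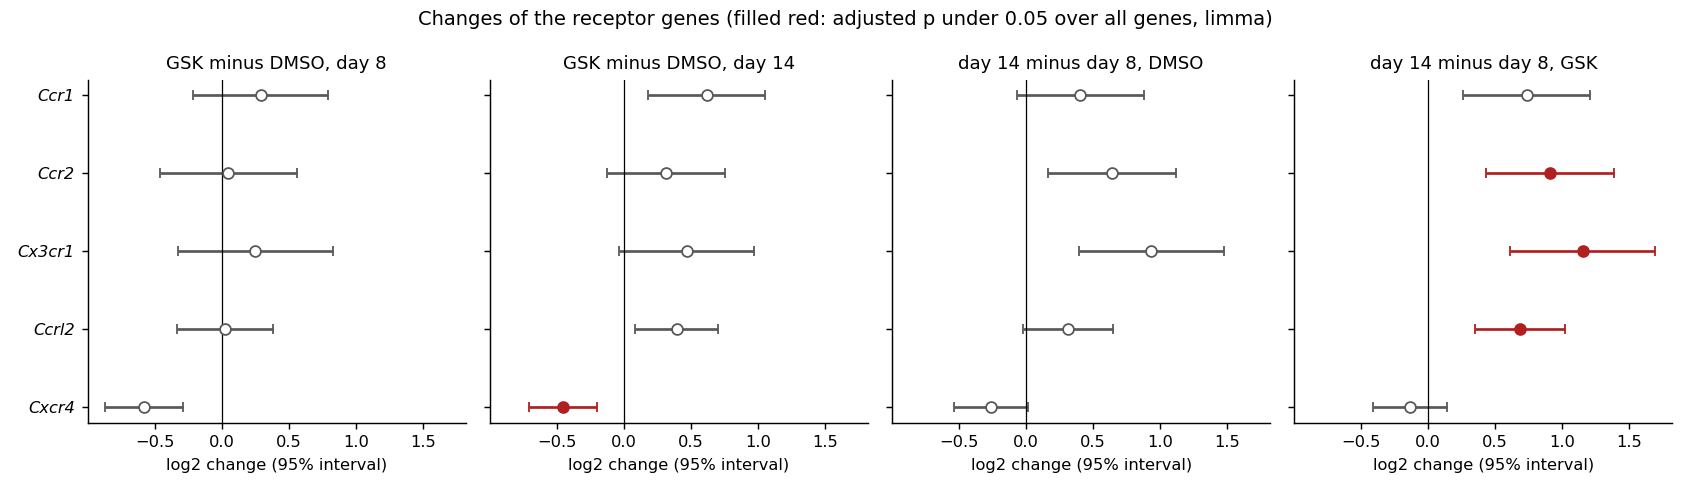
Log2 changes of the 5 receptor genes (points, with 95% intervals; horizontal axes in log2 units) for GSK against DMSO on each day and for day 14 against day 8 in each treatment. Filled red points passed an adjusted p of 0.05 over all genes: Cxcr4 for GSK against DMSO on day 14, and Ccr2, Ccrl2 and Cx3cr1 for day 14 against day 8 in GSK tumours.

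The comparison of day 14 with day 8 asks how the receptors differ with tumour age. In macrophages from GSK tumours, Cx3cr1, Ccr2 and Ccrl2 rose from day 8 to day 14, and Cxcr4 did not change past the threshold. Cx3cr1 rose by 1.15 (SE 0.26), from 7.32 ± 0.29 (n = 3) to 8.47 ± 0.33 (n = 4), or 2.22-fold (limma, adjusted p = 0.0184). Ccr2 rose by 0.91 (SE 0.23), from 8.91 ± 0.37 to 9.82 ± 0.18, or 1.88-fold (limma, adjusted p = 0.0284), and Ccrl2 by 0.68 (SE 0.16), from 10.12 ± 0.23 to 10.80 ± 0.20, or 1.61-fold (limma, adjusted p = 0.0221). For these 3 genes every day 14 library lay above every day 8 library, as given in the values above. Ccr1 did so as well, with a difference of 0.73 (SE 0.22) that narrowly missed the threshold (limma, adjusted p = 0.0559), and Cxcr4 differed by -0.14 with overlapping groups (adjusted p = 0.551). So 3 of 5 receptors were higher, where 3.05% of all genes were and 7.01% passed in either direction; 4 of 5 had non-overlapping higher values, against 15.1% of all genes, and the median over the 5 was 0.73 against 0.01. As the 5 genes were chosen with earlier results of these data known, these shares are descriptions only.

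These 3 calls rested on few libraries. Without GSK day 8 library 1 none of the 3 passed (limma, adjusted p = 0.187 for Ccr2, 0.127 for Ccrl2 and 0.0570 for Cx3cr1), nor without GSK day 14 library 1 (0.0602, 0.0572 and 0.0563) or 4 (0.0988, 0.0855 and 0.0726), and Ccr2 was also lost without GSK day 8 library 2 (0.0574) or GSK day 14 library 2 (0.0518), as was Ccrl2 without GSK day 8 library 2 (0.0730). Ccr1 passed without DMSO day 8 library 1 (0.0459), GSK day 8 library 3 (0.0366), or DMSO day 14 library 1 (0.0256) or 3 (0.0354). All changes kept their direction.

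Markers of other cells moved over the same interval in the GSK tumours. Of 10 epithelial markers of the 4T1 cells, 7 fell, with log2 changes of -2.95 for Krt18, -2.28 for Krt7, -1.98 for Krt19 and -1.68 for Krt8, keratins of simple epithelia, -1.97 for Krt14, -1.70 for the tight junction gene Cldn4 and -1.36 for its relative Cldn7, and their summed unlogged level was 1813 to 3921 on day 8 and 1223 to 1701 on day 14. Of 5 dendritic cell markers 2 fell, Batf3 (-1.13) and Siglech (-0.54), with sums over all 8 measured of 601 to 943 and 296 to 428, and of 7 endothelial markers 1 fell, Pecam1 by 0.71, with sums of 1371 to 2089 and 943 to 1209. Of 12 monocyte markers 2 rose, Chil3 by 2.09 and Hp, which encodes haptoglobin, by 0.72, with sums over all 13 measured of 11804 to 17085 and 15790 to 16880. Of the 12, 10 had positive changes, with a list median of 0.36. Ly6c2 (-0.55) and Vcan (-0.37) went the other way without passing (limma, adjusted p = 0.330 and 0.307). Of 8 markers of resident-like macrophages 2 fell, Cbr2 with a log2 change of -1.37 (limma, adjusted p = 0.000835) and the scavenger receptor gene Cd163 with -0.88 (adjusted p = 0.0375), with sums of 8166 to 13379 on day 8 and 7320 to 9198 on day 14. Yet 5 of the 8 resident-like markers had positive changes, none past the threshold, with a list median of 0.16. The largest was 1.17 for Selenop (limma, adjusted p = 0.0911). The pan-macrophage marker Lyz2, lysozyme, rose by 1.26, the 1 of 12 that passed. The part of these shifts in the receptor changes was not tested.

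In macrophages from DMSO tumours none of the 5 receptors passed between the days, where 0.824% of all genes did; 2 had an unadjusted p under 0.05, Ccr2 and Cx3cr1, against 15.4% of all genes. The differences were 0.93 for Cx3cr1 (limma, adjusted p = 0.0944), 0.64 for Ccr2 (0.190), 0.41 for Ccr1 (0.402), 0.32 for Ccrl2 (0.351) and -0.26 for Cxcr4 (0.349). The Ccrl2 groups did not overlap, as 10.1% of all genes did not. Cx3cr1 passed without DMSO day 8 library 2, its highest library of that day (1.29, adjusted p = 0.0152). Of the marker lists, Cd163 (-1.78) and the epithelial Cldn7 (-1.19) fell and Igkc, an immunoglobulin light chain gene, rose (1.00) between the days in DMSO tumours, and their part in the receptor values was not tested. As the effect of GSK did not differ between days past the threshold for any of them, the data do not show that the change with time differed between DMSO and GSK tumours. The 4 comparisons share groups: the GSK day 14 libraries, for instance, enter both the treatment and the time comparison, so the higher Ccr1, Ccr2, Ccrl2 and Cx3cr1 means of that group count in both.

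Within groups, Ccr1 and Ccr2 varied together. Taking each library's deviation from its own group mean, the pair had a Pearson r of 0.75 and a Spearman rho of 0.82 over the 14 libraries (0.80 without DMSO day 14 libraries 1 and 3, which deviated most). Cx3cr1 tended the other way, with r of -0.47 against Ccr1 (-0.45 without DMSO day 14 libraries 1 and 3) and -0.40 against Ccr2 (-0.24 without DMSO day 14 library 1 and GSK day 8 library 1). In DMSO day 8 library 2, GSK day 8 library 1 and DMSO day 14 library 1, Ccr1 and Ccr2 were the lowest of their group and Cx3cr1 the highest. Those libraries also had the lowest values of their groups on the second principal component of all genes tested (-16.9, -23.2 and -24.3). How far the receptor pattern follows that component was not tested. GSK day 14 had no library with this receptor pattern. These correlations are descriptions across libraries that share groups, normalisation and tissue. Ccr1 and Ccr2 lie in the same cluster, with Ccr3 between them.

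**Figure D4:**
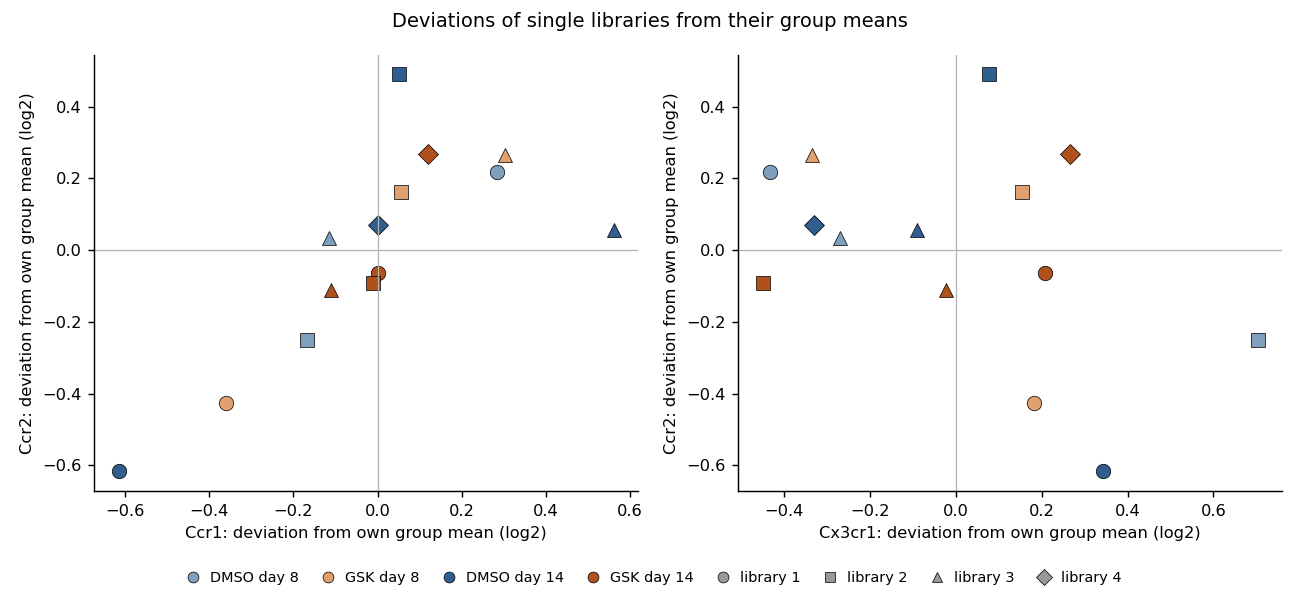
Deviation of each library from its own group mean (log2, both axes) for Ccr2 against Ccr1 and for Ccr2 against Cx3cr1. Colours mark the 4 groups and symbols the library number. Ccr1 and Ccr2 lie along a rising line (r 0.75), and Cx3cr1 and Ccr2 along a loose falling one (r -0.40).

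Genes with the most similar pattern were taken as those with the highest Pearson r over the 14 libraries. For Cxcr4 these were Ube2n (0.97), which encodes a ubiquitin-conjugating enzyme, then Selenot, Klhl21, Kif3a and Blcap, and for Ccr1 Rgcc (0.98), Cbl, Slc2a1 (the glucose transporter GLUT1), Adam10 and Socs3, a feedback inhibitor of cytokine signalling. For Ccr2 they were Lap3 (0.95), Alcam, Stk17b, Nfe2l2 and Klf4, for Ccrl2 Atp23 (0.94), Sh2b3, Havcr2, Glipr1 and Itgb2, and for Cx3cr1 Axl (0.94), a receptor tyrosine kinase that binds Gas6, then Mcm6, Slamf9, Sh2b1 and Plxdc2. After removal of group means r was 0.96 for Rgcc with Ccr1, 0.83 for Ube2n with Cxcr4 and 0.84 for Axl with Cx3cr1. The lowest among the genes named was 0.66, for Havcr2 with Ccrl2. As the genes were picked by their r over the same libraries, these values are no separate support. The candidates numbered 10379 genes, and such high values are the top of a long ranking.

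Of the ligands of these receptors, 14 of 15 reached the minimum. On day 14, 2 fell in GSK tumours and none rose: Ccl4, an inflammatory chemokine of macrophages, by 1.10 (SE 0.19; limma, adjusted p = 0.00548), and Mif, a cytokine that binds Cxcr4 and Cd74, by 0.71 (adjusted p = 0.0151). In the mean of both days Hmgb1, a nuclear protein that acts with Cxcl12 on Cxcr4 outside cells, fell as well, by 0.66 (adjusted p = 0.00724). Ccl4 and Mif also fell from day 8 to day 14 in GSK tumours, by 1.05 and 0.73. Ccl2 and Ccl7, which are ligands of Ccr2, differed by -0.24 and 0.41 on day 14 without passing. Ccl12, also on the ligand list, differed by 1.02 on day 14 (limma, adjusted p = 0.136). With time in GSK tumours Ccl12 differed by 1.16 (limma, adjusted p = 0.135), where 4 of the 14 ligands had positive changes. Cxcl12, made chiefly by stromal cells, was low in these cells (group means of 3.86 to 4.37) and differed by 0.00 on day 14. Cx3cl1 stayed below the minimum. The median of the list was 0.09 on day 8 and -0.07 on day 14, beside 0.02 for all genes. Of all genes, 5.73% were lower and 5.1% higher on day 14. In the mean of both days 7.77% were lower, and with time in GSK tumours 3.95%.

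Of 42 genes that carry or end the receptors' signal, none passed on day 8, where 0.194% of all genes did. On day 14, 6 were higher and 2 lower, against 5.1% and 5.73% of all genes, with a list median of 0.04. Among them, Rgs1, which speeds the G protein's return to its inactive state, rose by 1.09 (limma, adjusted p = 0.0038), the kinase gene Fyn by 0.81, the G protein subunit Gnaq by 0.66, Jak2 by 0.65 and Elmo1, part of the complex that activates Rac, by 0.62. Grk2, the kinase that marks active receptors for uptake, fell by 0.84 (limma, adjusted p = 0.0112), and Rhoa, a small GTPase of the actin cytoskeleton, by 0.74 (adjusted p = 0.00608). In the mean of both days 7 were higher, among them Rgs1 (0.69), Fyn (0.68), Jak2 (0.58), Gnaq (0.57), Gng12 (0.52) and Rgs19 (0.45), and 3 lower, Rhoa (-0.72), Grk2 (-0.59) and Plcb2 (-0.35). Over all genes 6.73% were higher and 7.77% lower in that mean. From day 8 to day 14, Rgs1 and Rgs10 rose in GSK tumours, by 0.80 and 0.95, and Gng12 rose in DMSO tumours by 0.66. With time, 7.01% of all genes passed in GSK tumours and 0.824% in DMSO tumours.

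Of the other 20 chemokine receptor genes listed, 19 were in the table and 8 reached the minimum. Ackr2, Gpr1, Ccr4, Cxcr1, Cxcr6 and Ackr4 were at or below 1 unlogged in every library. None of the 8 passed on either day or between days (limma), and in the mean of both days Ccr7, which guides dendritic cells to lymph nodes, was higher by 0.44 (adjusted p = 0.0413). Ackr3, the other receptor of Cxcl12, averaged 8.18 and 7.67 on day 8 and 7.76 and 7.60 on day 14 in DMSO and GSK libraries and did not pass. Cmklr1, the signalling receptor of chemerin, lay between 9.66 and 9.79 in all 4 group means, while Ccrl2 ranged from 10.09 to 10.80.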

How the data were processed

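The authors deposited 1 table of normalised values on a log2 scale for the 14 libraries; Bowtie2, RSEM 1.2.29 and DESeq2 1.12.4, with the builds mm10 and GRCh38, are named per the submitters' processing notes. The transformation is not given in the sources used here, low genes appear shrunken, and without counts the depth and its precision are unknown. Genes with an unlogged value of at least 10 (log2 3.32) in at least 3 libraries were kept: 11886 of 24556. The values were fitted with limma 3.58.1 in R 4.3.3 (4 group means, all libraries, trended eBayes, two-sided), with Benjamini-Hochberg adjustment over all kept genes and a threshold of 0.05; the script was tested on simulated data. Symbols were matched to GENCODE M21, which found 24483. Alternatives covered the filter, scaling, weights, the replicate block, the ribosomal transcript split and each library left out.

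The 5 receptors and all gene lists (other receptors, ligands, signalling; pan-macrophage, monocyte, resident-like macrophage, neutrophil, T and NK cell, B and plasma cell, dendritic cell, eosinophil, basophil and mast cell, 4T1 epithelium, fibroblast and endothelium markers) were chosen with earlier results of these data known. The text names all 5 receptors, list genes past the threshold (up to 6 per list and comparison) with a few fixed ones, Ccl12 and Vcan, and the 5 genes most correlated with each receptor. Of neutrophil (5 kept), eosinophil, basophil and mast cell (3) and fibroblast (3) markers none passed in any comparison. On day 14 Adgre1, Cd68 and Lyz2 rose and Itgam and C1qa fell in GSK tumours, and of 8 resident-like markers Folr2 and Selenop rose and Cbr2 fell; of 2 B and plasma cell markers Igkc fell. In the mean of both days Adgre1, Chil3 and Selenop rose and Itgam, C1qa and Cbr2 fell. From the lists, 1 receptor gene and 1 signalling gene are not reported here.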

Additional observations from a re-analysis of the deposited data

Results flagged for a closer look

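Ccr2 in GSK day 14 library 4 stood apart from the rest of its group, at 10.09 against 9.71 to 9.76 in the other 3 libraries. Its gap to the nearest library was 0.871 of the group's range, above Dixon's 95% critical value of 0.829 for 4 samples. It was the only one of 10 groups of values so tested (5 genes in the 2 groups of day 14) that did so, and chance marks about 1 in 20 groups. In the same library Ccr1, Ccrl2 and Cx3cr1 were also the highest of their group and Cxcr4 the lowest. Without it, the day 14 difference of Ccr2 was 0.23 (limma, adjusted p = 0.640), and the rise of Ccr2 from day 8 to day 14 in GSK tumours lost its call (adjusted p = 0.0988).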

How the results depend on the processing

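Of 750 recomputed receptor values, 686 kept direction and side of the threshold, 29 lost and 22 gained a call, and 13 reversed, none of them a call. On day 14 (1 receptor past the threshold) the number was 0 with no filter, with the ribosomal split as a term or in AY036118-high libraries only, and 2 with quantile normalisation (Ccr1 and Ccrl2 in place of Cxcr4, at 0.0513) or library weights. In the mean of both days (1) it was 2 with quantile normalisation or weights, where Ccr1 was added; in AY036118-high libraries Cxcr4 lost its call (-0.38, 0.0503) and Ccr2 gained one (0.55, 0.0451, against 0.18). Ccr1 also passed there without DMSO day 8 library 1 (0.0491), GSK day 8 library 1 (0.0263) or DMSO day 14 library 3 (0.0165). For day 14 against day 8 in GSK tumours (3) it was 0 with no filter, 1 in AY036118-high libraries and 4, with Ccr1 added, under a minimum of 50 (0.0476), quantile normalisation (0.0425), weights (0.000928) or only the groups compared (0.0223). Leaving out libraries gave 0 to 1 on day 8, 0 to 2 on day 14, 1 to 2 for the mean, 0 for the interaction, 0 to 1 with time in DMSO and 0 to 4 with time in GSK tumours. Cxcr4 lost its day 14 call with the ribosomal split as a term (-0.40, 0.0915) and with no filter (0.0538). Reversed day 8 values were -0.019 for Ccrl2 (split as a term), -0.54 for Cx3cr1 (AY036118-high), and -0.15, -0.50 and -0.091 for Ccr1, Ccr2 and Ccrl2 (Gm42418-high), and over single libraries left out the range was -0.083 to 0.26 for Ccr2 and -0.11 to 0.11 for Ccrl2. The mean of both days was -0.10 for Cx3cr1 (AY036118-high), and the interaction -0.046 for Ccr2 (weights) and -0.13 for Cx3cr1 without DMSO day 8 library 2 (-0.13 to 0.43 over libraries left out); the cause was not tested. Genes past the threshold ranged from 0 to 317 on day 8 (23 as reported), 221 to 2373 on day 14 (1287), 629 to 2820 for the mean (1724), 1 to 12 for the interaction (1), 1 to 305 with time in DMSO (98) and 112 to 3523 in GSK tumours (833). Library numbers are not said to mark shared animals or days; same-numbered libraries deviated together at -0.34 to 0.52 over 19 pairs, and 5 pairs exceeded 0.1. With the replicate block 1 receptor passed with time in GSK tumours (Cx3cr1), Ccr2 at 0.0654 and Ccrl2 at 0.0629 did not, and 301 genes passed; Cxcr4 on day 14 kept its call (0.0465). The fit in Gm42418-high libraries was possible only on day 8 and with time in DMSO tumours. Depth could not be assessed without counts.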

Other observations

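Within single libraries, the difference between Ccr1 and Cxcr4 separated the treatments on both days, a pattern noticed after the values were seen and not tested. The log2 value of Ccr1 minus that of Cxcr4 was -1.91 to -1.63 in DMSO and -1.20 to -0.61 in GSK libraries on day 8, and -1.69 to -0.40 in DMSO and -0.23 to 0.25 in GSK libraries on day 14. The groups did not overlap on either day. This was not particular to Ccr1. Cxcr4 alone did not overlap on either day, nor did Ccr2 minus Cxcr4 or Ccrl2 minus Cxcr4. Of all single genes, 16.2% did not overlap on day 8 and 22% on day 14. The share among differences between genes was not computed. Cx3cr1 minus Cxcr4 overlapped on day 8 but not on day 14. The value of Ccr2 minus that of Cxcr4 averaged -1.25 in DMSO day 8, -0.62 in GSK day 8, -0.35 in DMSO day 14 and 0.42 in GSK day 14 libraries. These differences are not corrected for gene length, so only their order across libraries can be read.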
